A study of Drosophila melanogaster with 3 samples.

Results

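Among the genomic intervals bound by a Hairy-GFP fusion in Drosophila melanogaster larvae, those in which a single interval was listed with several summits are described here. The members were thus selected by the positions of called peaks. A summit is the position of highest signal within a peak, and an interval was taken as a multi-summit interval when at least 2 entries of the IDR-thresholded (irreproducible discovery rate) peak list had the same chromosome, start and end. The rule selected 155 of 10074 intervals, or 1.54%, and these hold 314 of the 10233 entries, or 3.07%. The other 9919 intervals hold a single summit each and served for comparison. Of the 155 multi-summit intervals, 152 hold 2 summits, 2 hold 3 and 1 holds 4.

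The intervals came from ChIP-seq of whole larvae at the third instar, wandering stage, in 3 biological replicates of 1 group. The larvae were of mixed sex and unknown age and belonged to strain 15T-GFP, a transgenic line in which GFP is joined to the C terminus of h, the gene named hry in the current annotation. Sonicated chromatin was precipitated with an anti-GFP antibody, and the control library was not analysed here, so peaks that arise without the fusion protein cannot be told apart from its binding. Whole larvae mix many tissues, so 2 summits of an interval need not be bound in the same cells, and the lists do not tell these cases apart.

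Hairy belongs to the HES proteins, basic helix-loop-helix transcription factors that bind DNA as dimers and recruit corepressors, among them Groucho and CtBP, to silence nearby genes. HES dimers prefer class B E-boxes, class C sites and N-boxes, short palindromic or near-palindromic hexamers, over the class A E-boxes bound by proneural activators. In the fly, Hairy acts as a pair-rule segmentation protein in the embryo and later limits where sensory bristles form. ChIP-seq peak callers place a summit where fragment density peaks, and some of them split a wide peak into several summits.

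The DNA between and around paired summits is shown for 6 of the strongest multi-summit intervals. They were taken from those free of untranslated exons and narrow enough to print, so that intervals with several, 1 and no motif matches are seen, both hry intervals among them. Each stretch is the plus strand of dm6 (RefSeq, Release 6), 5′ to 3′. Capitals mark every match, on either strand, to the 10 motifs searched: the class B E-box reads CACGTG, the class C site reads CACGCG, the N-box reads CACNAG, the class A E-box reads CAGCTG, the Zelda-type hexamer reads CAGGTA, the DRE reads TATCGATA, the Ohler 1 motif reads GGTCACAC, the GAGA repeat reads GAGAGAG, the CA repeat reads CACACACA, and the hexamer ACACTG has no name here. Matches of the GAGA repeat can overlap each other, and a GAGA repeat can overlap an N-box. A match describes the letters and does not show a bound site.
CG9663: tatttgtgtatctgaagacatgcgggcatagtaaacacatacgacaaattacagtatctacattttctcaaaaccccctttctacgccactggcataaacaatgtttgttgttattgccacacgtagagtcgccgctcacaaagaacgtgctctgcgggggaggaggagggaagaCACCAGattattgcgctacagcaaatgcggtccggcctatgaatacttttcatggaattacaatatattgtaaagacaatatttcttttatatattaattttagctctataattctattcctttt
papi: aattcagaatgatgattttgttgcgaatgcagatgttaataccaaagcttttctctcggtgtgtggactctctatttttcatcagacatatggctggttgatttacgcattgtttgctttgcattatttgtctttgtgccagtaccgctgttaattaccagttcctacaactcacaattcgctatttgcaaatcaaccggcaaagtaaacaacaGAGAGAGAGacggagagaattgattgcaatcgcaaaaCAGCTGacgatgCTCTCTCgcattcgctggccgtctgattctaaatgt
Akt: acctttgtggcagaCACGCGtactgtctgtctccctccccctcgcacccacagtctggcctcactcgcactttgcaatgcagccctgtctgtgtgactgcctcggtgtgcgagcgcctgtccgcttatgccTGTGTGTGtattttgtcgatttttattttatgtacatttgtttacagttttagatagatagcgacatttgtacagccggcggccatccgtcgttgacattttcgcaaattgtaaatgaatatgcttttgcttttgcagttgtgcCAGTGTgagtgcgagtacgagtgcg
hry upstream: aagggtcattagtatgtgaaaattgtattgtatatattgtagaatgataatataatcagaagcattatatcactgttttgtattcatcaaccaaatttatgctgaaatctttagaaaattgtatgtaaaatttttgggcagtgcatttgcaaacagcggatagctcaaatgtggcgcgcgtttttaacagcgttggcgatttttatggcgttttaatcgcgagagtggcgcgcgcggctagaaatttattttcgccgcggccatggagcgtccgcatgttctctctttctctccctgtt
hry downstream: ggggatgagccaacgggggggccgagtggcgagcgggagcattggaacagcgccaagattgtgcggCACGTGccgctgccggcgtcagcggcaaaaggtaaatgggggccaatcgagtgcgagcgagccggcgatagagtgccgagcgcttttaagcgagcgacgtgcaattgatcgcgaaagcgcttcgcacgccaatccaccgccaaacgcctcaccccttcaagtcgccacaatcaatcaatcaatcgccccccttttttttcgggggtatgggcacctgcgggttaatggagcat
prage: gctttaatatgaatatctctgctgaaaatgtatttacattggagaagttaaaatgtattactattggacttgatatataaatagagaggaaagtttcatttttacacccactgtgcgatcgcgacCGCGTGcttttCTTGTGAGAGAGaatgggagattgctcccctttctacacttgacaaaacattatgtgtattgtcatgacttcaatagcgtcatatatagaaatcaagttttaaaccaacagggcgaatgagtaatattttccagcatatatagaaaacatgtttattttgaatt

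The CG9663 stretch (chr2L:3302151-3302450) lies in an intron of CG9663, 929 bp downstream of a TSS, and its summits stand at positions 51 and 250. Its single marked motif, an N-box, starts between them at position 176. The papi stretch (chr2L:2221784-2222082) lies in an intron and has its summits at positions 33 and 267. All its marked motifs stand by the weaker summit, with a class A E-box that starts 15 bp before it and GAGA repeats that start 52, 50 and 3 bp before it; papi encodes a Tudor-domain protein of the piRNA pathway. In the Akt stretch (chr3R:16099858-16100157), from an intron of the gene for the insulin pathway kinase, a class C site starts 36 bp before the stronger summit, a CA repeat 81 bp after it, and an ACACTG match starts 26 bp after the weaker one.

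The upstream hry stretch (chr3L:8672652-8672950), outside protein-coding genes, holds none of the 10 motifs. Here and below, outside genes means outside the bodies of protein-coding genes, since noncoding genes were not used for this class. The downstream hry stretch (chr3L:8696633-8696931), also outside genes, holds a class B E-box that starts 21 bp after its stronger summit, at position 67. The prage stretch (chrX:1830734-1831033), in an intron, has a class C site, an N-box and a GAGA repeat starting 75, 86 and 91 bp after the stronger summit, so all 3 stand between its summits.

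Multi-summit intervals were placed by their strongest summit and compared with single-summit intervals by annotation, which the selection rule did not use. In promoters, taken as the 500 bp on either side of a protein-coding TSS (transcription start site), lay the strongest summit of 78 of 155 multi-summit intervals, against 3911 of 9919 single-summit intervals. These shares are 50.3% (exact 95% interval 42.2 to 58.4) and 39.4% (38.5 to 40.4), a difference of 10.9 percentage points (odds ratio 1.56, two-sided Fisher's exact test, adjusted p = 0.0236). Of the promoter share and the 5 location classes tested together, 2 of 6 were called at an adjusted p under 0.05, or 33.3%. The other call was the 5′ UTR, which held 6 of 155 strongest summits in multi-summit intervals, or 3.87% (1.43 to 8.23), against 1089 of 9919, or 11% (10.4 to 11.6), in single-summit intervals (odds ratio 0.327, adjusted exact p = 0.0153). The 6 were at Elp5, which encodes a subunit of the Elongator complex, at Eip74EF, an ecdysone-induced ETS-family gene, and at CG9399, Septin2, Hsc70-5 and MFS14.

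Introns held 54.8% of strongest summits of multi-summit intervals and 50.5% of single summits (adjusted exact p = 0.44). Sequence outside protein-coding genes held 38.7% and 36.3% (adjusted exact p = 0.635). The 3′ UTR held 4 multi-summit intervals, or 2.58%, against 1.44% of single-summit intervals (adjusted exact p = 0.44). No multi-summit interval had its strongest summit in a coding exon, which allows a share of up to 2.35%, against 0.786% of single-summit intervals (adjusted exact p = 0.635). Among promoter intervals, 18 of 78 multi-summit intervals, or 23.1%, had start sites of different genes on both strands within 500 bp, against 26.1% of single-summit intervals (Fisher's exact test, p = 0.604).

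The promoter difference depended on what was called near. Within 250 bp of a TSS the shares were 32.3% in multi-summit and 32.4% in single-summit intervals, a difference of -0.185 points (adjusted exact p = 1). Against the 1398 single-summit intervals that have another summit of the list within 300 bp, it was 1.9 points (adjusted exact p = 0.673), and within the stronger part of the list it was 8.26 points (adjusted exact p = 0.142). A replicate was left out by keeping only intervals of this list whose strongest summit lay inside a strong peak of both other replicates. The list itself was still the one made from all 3. This kept 147 multi-summit and 7567 single-summit intervals without replicate 2, and 150 and 7929 without replicate 3. The promoter difference was then 9.67 points without replicate 2 (adjusted exact p = 0.0646) and 9.27 points without replicate 3 (adjusted exact p = 0.0699). The 5′ UTR difference was -7.11 points with all replicates and -6.48 points without replicate 2 (adjusted exact p = 0.0534). It was -5.87 points in the stronger part of the list (adjusted exact p = 0.0704), and 2.32 points, with the sign turned, when overlapping intervals were merged first (adjusted exact p = 0.167).

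The distances show where the excess lay. The strongest summit was 251 to 500 bp from a TSS in 18.1% of multi-summit intervals (12.4 to 25) and in 6.99% of single-summit intervals, and at most 100 bp away in 12.3% (7.54 to 18.5) and 19.0%. Single-summit intervals with a close neighbour had 13.1% at 251 to 500 bp and 17.5% within 100 bp. Promoter summits of multi-summit intervals stood a median of 205.5 bp from the TSS, and 71 of 78, or 91.0%, were upstream of it. In single-summit intervals the median was 106 bp, with 72.6% upstream. The distance bins and sides were looked at after the promoter result and were not tested.

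**Figure D1:**
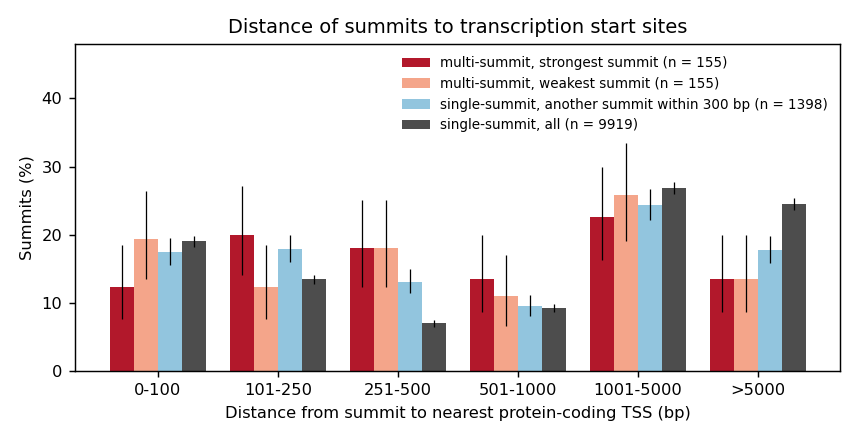
Share of summits (y axis, %) by distance to the nearest protein-coding TSS (x axis, bp) for the strongest and the weakest summit of the 155 multi-summit intervals, for the 1398 single-summit intervals with another summit within 300 bp, and for all 9919 single-summit intervals; lines are exact 95% binomial intervals that cover counting error only. In the bin from 251 to 500 bp both summits of multi-summit intervals stand at 18.1%, against 6.99% for all single-summit intervals.

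Paired summits mostly had the same location. They share an interval by selection and stood a median of 204 bp apart, so this agreement is given as description only. Both the strongest and the weakest summit were at a promoter in 73 intervals, neither was in 73, and 1 of the 2 was in 9. In 77 intervals both lay in an intron and in 54 both lay outside genes. The outermost summits stood on either side of a TSS in 16 intervals. Of the 73 intervals with both summits at a promoter, 12 had different nearest genes at the strongest and the weakest summit. The weakest summit was nearer to its TSS than the strongest in 80 intervals and farther in 75.

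Represented by their strongest summit, multi-summit intervals differed from single-summit intervals in no motif or 6-mer that passed the test. Within 100 bp on each side of the strongest summit, 0 of 10 motifs were called after Benjamini-Hochberg adjustment (0%), and of all 2080 6-mers 0 were called higher (0%) and 0 lower (0%). At an unadjusted Fisher p under 0.05 there were 113 of 2080 6-mers, or 5.43%. The class A E-box was found in 6 multi-summit intervals, or 3.87% (1.43 to 8.23), against 9.55% of single-summit intervals (adjusted exact p = 0.123). Among the alternatives run it was called only with outermost summits at least 200 bp apart, at 2.94% against 9.55% (adjusted exact p = 0.048).

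Of the sites that HES proteins prefer, the class C site stood in 14 multi-summit intervals, or 9.03% (5.03 to 14.7), against 6.14% of single-summit intervals (adjusted exact p = 0.329). The N-box stood in 20.6% against 20.3% (adjusted exact p = 1). In comparison, a class B E-box stood in 3 multi-summit intervals, or 1.94% (0.401 to 5.55), against 2.13% of single-summit intervals (adjusted exact p = 1). The 3 were the downstream hry interval, an interval at the ecdysone-induced ABC transporter gene E23, and one nearest CG34460. The DRE was found in 1.29% against 3.01%, and the Ohler 1 motif in 0 of 155 against 2.18%, both of them elements of fly core promoters (adjusted exact p = 0.67 and 0.329). CAGGTA stood in 3.23% against 4.36%, the GAGA repeat in 3.87% against 5.7% and the CA repeat in 4.52% against 5.41% (adjusted exact p = 0.984, 0.801 and 1). With every summit counted, the CA repeat was called higher, at 9.55% of summits of multi-summit intervals against 5.41% (adjusted exact p = 0.0357). That test took the 314 summits as separate units, so its p-value does not account for summits that share an interval. For ACACTG the shares were 11.6% and 16.7% (adjusted exact p = 0.329).

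GC content around the strongest summit averaged 37.0% ± 8.71 in multi-summit intervals (SD, n = 155) and 38.4% ± 8.17 in single-summit intervals (n = 9919), a difference of -1.36 points (two-sided permutation test with 100000 resamples, p = 0.0398). The difference was -0.0241 points where both groups were limited to intervals at least 435.5 bp wide (116 against 331, permutation p = 0.982). With every summit counted it was called in the opposite direction, at 0.938 points (permutation p = 0.0448), though summits of 1 interval were then taken as separate units. It was not called without replicate 1 (-0.884 points, permutation p = 0.195), without replicate 2 (-1.33 points, p = 0.0507) or without replicate 3 (-1.29 points, p = 0.0528).

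Within multi-summit intervals, the sequence at the strongest and at the weakest summit was compared pair by pair. The CA repeat was found at 7 of 155 strongest summits, or 4.52%, and at 23 weakest summits, or 14.8%, the only 1 of 10 motifs called (10%). It stood only at the strongest summit in 6 intervals, only at the weakest in 22, and at both in 1 (exact McNemar test, adjusted p = 0.0372). Single-summit intervals held it in 5.41%. Where the summits were over 200 bp apart, so that the windows did not overlap, it was found at 3.39% of strongest and 16.1% of weakest summits in 118 intervals (adjusted exact p = 0.0149). With 50 bp on each side it was found at 3 strongest and 11 weakest summits and was not called (adjusted exact p = 0.287).

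The GAGA repeat stood at 6 strongest summits, or 3.87%, and at 17 weakest summits, or 11% (adjusted exact p = 0.133). The class A E-box stood at 6 strongest and 15 weakest summits (adjusted exact p = 0.261). The class C site, at 14 strongest and 16 weakest summits (adjusted exact p = 1), and the N-box, at 32 and 33 (adjusted exact p = 1), were not called. Mean GC was 37.0% at the strongest and 41.7% at the weakest summits, and its part in the repeat counts was not tested.

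**Figure D2:**
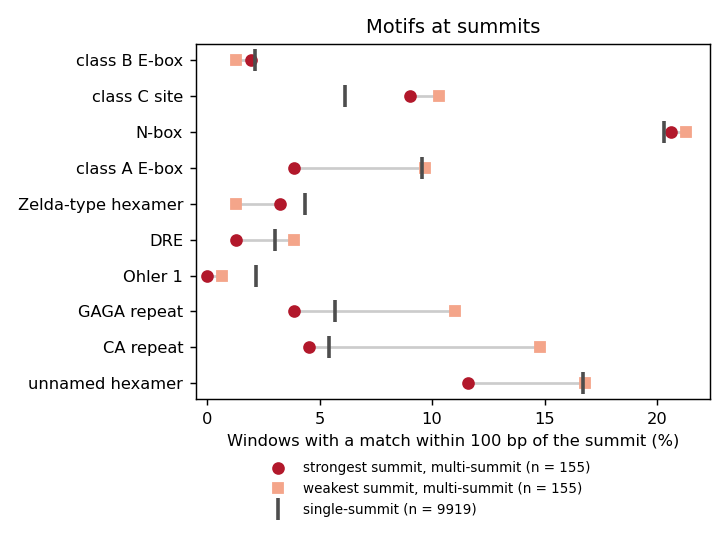
Share of windows of 100 bp on each side of the summit (x axis, %) that hold each of the 10 motifs (y axis) at the strongest and the weakest summit of the 155 multi-summit intervals and at single summits; the Zelda-type and the unnamed hexamer are spelled out in the text. The widest gap between paired summits is that of the CA repeat, 4.52% at the strongest and 14.8% at the weakest summit.

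The measures from here to the account of the replicates come from the list that chose the intervals and are given as description. Multi-summit intervals were 320 to 1465 bp wide, with a median of 503 bp, against 108 to 1127 bp with a median of 430 bp for single-summit intervals. A width of exactly 430 bp was shared by 4898 single-summit intervals, or 49.4%, and by 0 multi-summit intervals. The signal value, the authors' score for each peak, had a median of 782.4 at the strongest summit of multi-summit intervals, with a range of 221.1 to 3669.9, against a median of 199.3 in single-summit intervals. All 155 multi-summit intervals were above the list's median by this value, and 141, or 91.0%, were in the top 20% of the list, against 18.9% of single-summit intervals.

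Summits of a multi-summit interval were unequal in most cases. The weakest had a median signal value of 229.5 and a lowest value of 105.9, close to the lowest value of the whole list, 105.2. The ratio of the weakest over the strongest signal value had a median of 0.331, with quartiles of 0.216 and 0.518. It was under 0.2 in 35 intervals and at least 0.8 in 7. The most even pair, singled out after its values were seen, was in an intron of grp, with signal values of 526.4 and 522.5 at summits 247 bp apart. In the replicates' own lists this pair was less even. The same summits had 179.8 and 218.3 in replicate 2 and 72.7 and 129.7 in replicate 3, and replicate 1 had no summit within 100 bp of the second.

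The lists set a lower limit on spacing. The outermost summits of multi-summit intervals stood a median of 204 bp apart, at most 210 bp apart in 115 intervals, or 74.2%, and over 300 bp apart in 7. No 2 summits of the reproducible list, the pooled list or any replicate's list were nearer to each other than 199 bp. Of 854 pairs of neighbouring summits within 300 bp in the reproducible list, 152, or 17.8%, shared an interval and 702 had an interval each. Both kinds of pair had a median spacing of 204 bp, and their median ratio of weaker to stronger signal value was 0.331 in shared intervals and 0.578 in separate ones. A shared interval is therefore the less frequent way in which this list records 2 close summits.

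**Figure D3:**
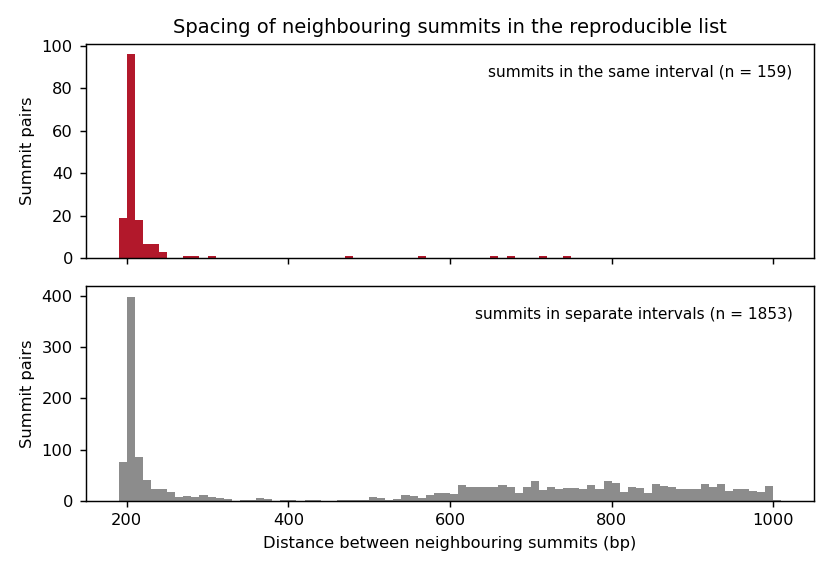
Number of pairs of neighbouring summits (y axis, on a scale of its own in each panel) by their distance (x axis, bp, up to 1000), for pairs in the same interval (upper panel) and in separate intervals (lower panel). Both distributions start at 199 bp and have a median of 204 bp among pairs within 300 bp.

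The list's threshold decided part of the membership. In the pooled list of 30000 peaks, 210 intervals held several summits, and 55 of them were single-summit intervals of the reproducible list because the other summit, with signal values of 23.6 to 104.9, had missed it. Just inside, the weakest summits had signal values of 105.9 at CG7694, 106.6 at ZnT77C and 107.3 at NFAT. Just outside, they had 104.9 at CG8067, 102.3 at CG43658 and 101.7 at CG9921.

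Multi-summit intervals were spread over the large arms: chromosome 3 held 30 on its left and 37 on its right arm, chromosome 2 held 34 on its left and 33 on its right arm, and X held 21. Chromosome 4 held 0, against 25 single-summit intervals. On X lay 13.5% of multi-summit and 18.2% of single-summit intervals. Within 5 kb of a multi-summit interval there were on average 2.52 other intervals, against 1.94 around a single-summit interval, and 13.5% and 21.3% had no other interval that near.

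The separate summits were largely present in each replicate's own list of 30000 peaks, although the reproducible list was made from the same replicates and their recovery is no independent evidence. A replicate summit within 100 bp was found for every summit of 137, 131 and 117 of the 155 multi-summit intervals in replicates 1, 2 and 3. That is 88.4%, 84.5% and 75.5%, or 82.8% ± 6.62 (SD, n = 3). Replicate 3 was the lowest of the 3. The strongest summits were recovered in 96.1% ± 1.12 and the weakest in 86.2% ± 5.85, against 95.5% ± 2.41 of the summits of single-summit intervals. For the 702 close pairs in separate intervals, both summits were recovered in 78.2% ± 8.88.

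**Figure D4:**
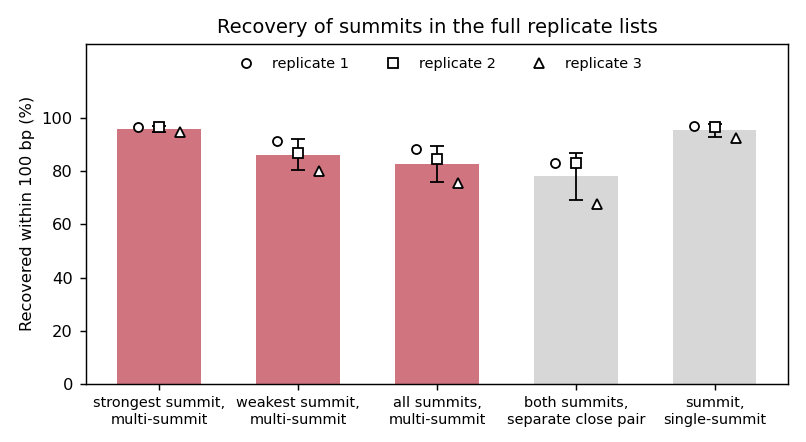
Percentage of intervals or pairs (y axis) whose summits had a replicate summit within 100 bp in the replicate's full list, for multi-summit intervals and for separate close pairs and single-summit intervals (x axis); bars are means, error lines the SD over 3 replicates, and symbols the replicates. Replicate 3 is lowest in each of the 5 columns, at 75.5% for all summits of multi-summit intervals.

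All summits were found in 3 replicates for 94 intervals, in 2 for 43, in 1 for 17 and in 0 for 1. The strongest and weakest summit had the same order of signal value as in the reproducible list in 136 of 137, 129 of 131 and 116 of 117 recovered intervals. The replicates listed these summits under a single interval in 45, 45 and 11 of the recovered intervals and under separate intervals in the rest. Replicates 1, 2 and 3 had 80, 92 and 35 multi-summit intervals of their own, of which 46, 48 and 12 overlapped one of the 155.

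By rank within a replicate's list, where 1 is the strongest peak, recovered strongest summits had medians of 677, 658 and 621 and recovered weakest summits 4042.5, 4093 and 3767.5 in replicates 1, 2 and 3.

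In 3 intervals a replicate had no summit within 100 bp of either summit, or no replicate had both. At chn, which encodes a zinc-finger protein, the signal values of 1134.3 and 911.5 lay 202 bp apart, but each replicate placed 1 strong summit between them, 130, 100 and 144 bp past the stronger in replicates 1, 2 and 3. At one CG43389 interval replicates 1 and 2 had both summits, while replicate 3 had a single summit 108 bp past the stronger. At put, replicate 2 had a single summit 105 bp past the stronger.

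**Figure D5:**
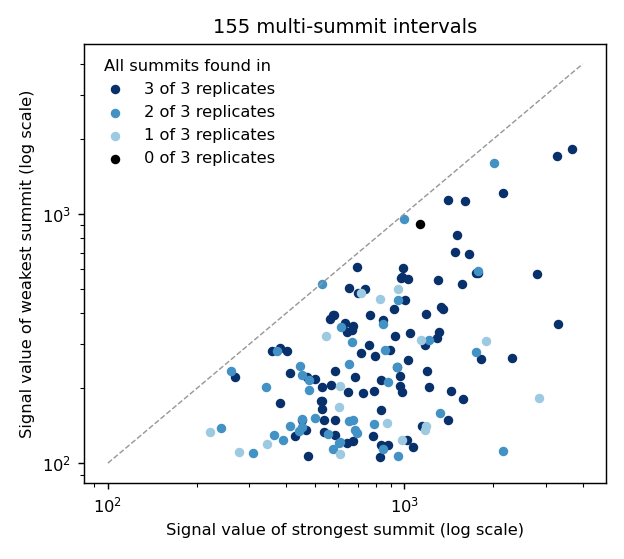
Signal value of the weakest summit (y axis, log scale) against that of the strongest summit (x axis, log scale) in the 155 multi-summit intervals, with the shade giving the number of replicates that held every summit and the dashed line marking equal values. The only interval found with every summit in 0 of 3 replicates, at chn, lies near the line at 1134.3 and 911.5.

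The strongest multi-summit interval, chrX:2137029-2138279, was in an intron of ph-p, a Polycomb group gene whose product takes part in gene silencing. Its summits had signal values of 3669.9 and 1823.3 and stood 674 bp apart, the stronger 445 bp upstream of a TSS of the same gene and the weaker in a 5′ UTR. They ranked 11, 6 and 11 and, for the weaker, 93, 96 and 51 in replicates 1, 2 and 3, so the pair was near the top of each list. Of the 20 strongest multi-summit intervals, 11 had the strongest summit within 500 bp of a coding TSS, and 14 had every summit in all 3 replicates.

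Genes of transcription factors and DNA-binding proteins were among the 20. Sox14, an ecdysone-induced HMG-box factor, had summits of 2844.4 and 183.4, the stronger 260 bp upstream of the TSS, and the weaker was found in replicate 3 only. The Adf1 interval, in an intron of a gene for a MADF-domain transcription factor, had 2161.1 and 1210.9, both found in all replicates. Upstream of bowl, which encodes an odd-skipped family zinc-finger protein, the values were 1774.4 and 580.5. An intron of vri, whose product is a bZIP repressor of the circadian clock, had 1599.0 and 1123.2 at summits 657 bp apart, ranked 145, 99 and 155 for the stronger and 194, 351 and 218 for the weaker in replicates 1, 2 and 3. The ratio of the weaker to the stronger signal value in these 4 pairs ranged from 0.0645 at Sox14 to 0.702 at vri.

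The other intervals of the 20 were as follows, apart from those at hry, which are given below. Elp5 had summits of 3304.2 and 362.9 across its TSS region. The CG5611 interval, with 2312.8 and 264.8, lay outside protein-coding genes between divergent start sites. Akt had 1752.9 and 580.9, ranked 64, 149 and 159 for the stronger and 1491, 1456 and 1950 for the weaker summit in replicates 1, 2 and 3. An intron of Rtnl1, the reticulon gene whose product shapes the endoplasmic reticulum, had 1748.1 and 279.8, with the weaker absent from replicate 3. For papi the values were 1776.3 and 588.8, again with the weaker summit absent from replicate 3. The others were nearest to CG9663, Tina-1, CG3552, CG43389 (2 intervals), CG42327, CG9471 and prage. The most unequal pair of all 155 was that of CG3552, with 2149.3 and 111.8 and a ratio of 0.052.

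Intervals with 3 or 4 summits were rare and wide. The only one with 4 summits, chr3L:8699594-8701058, lay outside protein-coding genes between hry and SrpRbeta, the gene with the nearest coding TSS. Its summits had signal values of 792.3, 387.5, 157.5 and 143.0 and spanned 973 bp. The weakest was absent from replicate 1. A second CG43389 interval held 3 summits over 924 bp, with 1890.4, 575.7 and 310.3, and the weakest was found in replicate 1 only. The interval upstream of prtp had 605.4, 200.5 and 121.9 over 582 bp. Besides these, ph-p and vri, the widest spacing was at Diap1, which encodes an inhibitor of apoptosis that blocks caspases: in its intron, summits of 1442.0 and 195.1 stood 749 bp apart and both were found in all 3 replicates.

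The hry locus itself (chr3L:8675759-8679253) had 3 multi-summit intervals among the 20 reproducible intervals within 20 kb of the gene. The upstream one, with its stronger summit 3059 bp before the TSS, had 1649.3 and 693.3, ranked 127, 130 and 151 for the stronger and 1004, 1005 and 2273 for the weaker in replicates 1, 2 and 3. The downstream one had 1563.9 and 522.2, ranked 133, 159 and 143 and then 2298, 1271 and 3658. It lay 20919 bp past the gene's start, and its stretch, shown above, holds the class B E-box. The remaining one, nearest to Pex7 and 18934 bp before the start of hry, had 671.7 and 353.6. All 3 lay outside protein-coding genes and had both summits in every replicate, while none was at the hry promoter.

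Counting a gene as bound when a summit lay between 1 kb upstream and its end, 167 protein-coding genes held a multi-summit interval, or 3.26% of the 5120 genes with any reproducible summit. The only gene with 3 or more was shn, which encodes a zinc-finger protein of the Dpp pathway. It held 5 multi-summit intervals among 21 intervals, all in introns, with strongest signal values of 1285.6, 697.5, 632.7, 308.7 and 240.4. The other genes with more than 1, CG43389, CG7694, fray, Rtnl1 and prage, held 2 each, and CG7694 and fray overlap and have the same 2.

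Of 15 gene lists, 8 had a gene with a multi-summit interval. In the Dpp pathway, a BMP-type signal that patterns discs and embryo, 3 of the 8 bound genes on the list held one; the list does not hold shn. Dad, the inhibitory Smad, had 1332.9 and 424.6 in an intron. The receptor genes tkv and put had 898.3 and 284.7, and 453.2 and 225.1, also in introns. Dad, tkv and put held 5, 11 and 2 intervals of any kind. Of the ecdysone list, 2 of 19 bound genes held one, E23 with 1046.9 and 333.5 and Eip74EF with 782.4 and 128.3. E23 held 5 intervals of any kind and Eip74EF 19. The ribosomal protein list had 3 of 76, among them RpL32 with 1068.3 and 115.6 and RpS5a with 364.1 and 130.2. Both had the stronger summit just upstream of the TSS. The weaker RpL32 summit lay in a 5′ UTR, 45 bp downstream of the TSS of the divergent neighbour CG7943.

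Single genes held one on 5 further lists. The EGFR list had 1 of 12 bound genes, the ligand gene Krn, with 642.9 and 120.8 at its promoter. The weaker of these summits was nearest to the divergent neighbour CG7484, just upstream of its TSS. The Notch list had 1 of 7, fng, whose product glycosylates Notch, with 982.8 and 123.9 and every summit in 1 replicate only. The Hippo list had Diap1 (1 of 14), the insulin and TOR list Akt (1 of 7) and the Polycomb list ph-p (1 of 8). None was found among the 8 bound HES genes by this count, whose limits leave out the 3 intervals around hry. None was found among 2 bound proneural and other bHLH genes, the 4 corepressor genes listed (gro, CtBP, Sirt1 and HDAC1), 2 segmentation genes, 8 Wingless, 5 JAK-STAT and 5 heat shock genes. Outside the lists, and named after their values were seen, the corepressor genes Smr and Sin3A each held 1, with every summit in 1 replicate only. The signal values were 605.7 and 203.5 at Smr and 876.4 and 145.2 at Sin3A. Against 3.26% of all bound genes these are counts of 0 to 3 genes per list, chosen with earlier results of these data known, and they were not tested. The counts were also not adjusted for gene length or for the number of intervals a gene holds.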

How the data were processed

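Peaks from anti-GFP ChIP-seq of 3 biological replicates were deposited as lists on builds dm6 and dm3, per the deposited notes: 1 list of 30000 peaks per replicate and, over all replicates, a pooled list and an IDR-thresholded (reproducible) list. Each peak carries a signal value, a score deposited by the authors with no stated scale. It was used here for ranks, medians and ratios inside a list. The ratios depend on that unstated scale and describe the scores only. The −log10 q-value deposited by the authors was not used. Not given in the sources used here are the aligner, the caller of the peaks and the threshold of the IDR step. The pooled list was deposited as peaks together with background for that step. Read depth is unknown, as the lists carry no totals of reads. The caller's smallest spacing and any splitting of wide peaks therefore enter the choice of intervals.

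Multi-summit intervals are entries of the reproducible dm6 list that have the same chromosome, start and end; the members, motifs and gene lists were chosen with earlier results of these data known. An interval was represented by its strongest summit. Location, promoter share and motifs were compared with two-sided Fisher's exact tests, adjusted by Benjamini-Hochberg over the 6 location tests, the 10 motifs or the 2080 6-mers; strongest and weakest summits with an exact McNemar test; GC with a permutation test. The promoter and divergent-promoter distance was 500 bp, and windows reached 100 bp to each side. Genes came from Ensembl release 115 and sequence from the RefSeq genome of the same assembly. The location classes used protein-coding genes only. Printed stretches reach up to 50 bases past the outer summits, fewer where needed to stay within 300 bases. Intervals on 2R and stretches with annotated UTRs were left out. Tests and intervals cover counting error only, since intervals of 1 list are not replicates. The adjusted Fisher screen of 6-mers and the permutation test were checked on simulated data, the latter with fewer values and resamples. The McNemar test was not checked in this way. Python 3.11.15, numpy 2.4.6, pandas 2.3.3, scipy 1.17.1 and matplotlib 3.10.9 were used.

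Genes named were the nearest to the 20 strongest multi-summit intervals, to those with 3 or more summits, to the 5 with the widest spacing and to those within 20 kb of hry, genes holding 3 or more, and up to 4 per list, of which 1 is not reported here. The alternatives changed the unit, strength, width, spacing, merging, list, build, promoter distance, TSS set and window. Each replicate was also left out in turn, without remaking the reproducible list. Intervals were kept if their strongest summit lay inside 1 of the 10233 strongest peaks of each of the other replicates. Single-summit intervals with a close neighbour and promoter intervals alone were added after seeing the data. The dm3 lists were only counted.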

Additional observations from a re-analysis of the deposited data

How the results depend on the processing

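Differences are in percentage points, multi-summit minus single-summit. The promoter share kept its direction except within 250 bp of a TSS, where it was -0.185. It was no longer called in the stronger part (8.26), with both groups limited to intervals at least 435.5 bp wide, called wide intervals here (7.78), in the lists of replicates 1, 2 and 3 (15.1, 7.71 and 11.6), or against single-summit intervals with a close neighbour (1.9). With each replicate left out it was 9.27 to 10.7. The 5′ UTR share was no longer called in the stronger part (-5.87), in wide intervals (-4.8), in the pooled list (-3.39) and in the lists of replicates 1, 2 and 3 (-3.62, -5.95 and -4.59); it was -6.22 to -6.52 with each replicate left out, and 2.32 with overlapping intervals merged. GC was 0.938 with every summit as a unit, called in the opposite direction (permutation p = 0.0448), 0.165 after merging and 0.715 in the list of replicate 3; it was not called in the stronger part (-0.416), in wide intervals (-0.0241), in the lists of replicates 1 and 2 (-0.784 and -0.955), with 200 bp on each side (-0.724), or with a replicate left out (-0.884 to -1.33). The cause was not tested.

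Uncalled differences also turned. Introns came to -1.79 in wide intervals, -0.472 after merging, and -4.35 and -12.5 in the lists of replicates 1 and 3. At promoter intervals alone they were called, at 17.6 (adjusted exact p = 0.00304). After merging, outside genes came to -1.47, the 3′ UTR to -0.475 and coding exons to 0.0969. The 3′ UTR was -0.435 in the pooled list. Divergent promoters came to 5.44 in the pooled list and 3.05, 5.84 and 7.49 in the lists of replicates 1, 2 and 3.

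Of the motifs, in wide intervals the class B E-box came to 0.169, the DRE 0.818, the CA repeat 0.339 and ACACTG 2.31. After merging, the class B E-box came to 0.268, the N-box -1.49, the class A E-box 0.187, the Ohler 1 motif 0.51 and the GAGA repeat 1.17. In the pooled list the N-box came to -0.044, the DRE 0.157 and the GAGA repeat 0.481. In the list of replicate 1 the class B E-box came to 1.04, the N-box -0.232, CAGGTA 0.511 and the GAGA repeat 0.401. In the list of replicate 2 the N-box came to -6.23 and the GAGA repeat 1.03. In the list of replicate 3 the class B E-box came to 1.34, the class C site -2.67, the N-box -13.1, CAGGTA 2.69, the GAGA repeat 4.22, the CA repeat 0.892 and ACACTG 1.77. With every summit as a unit the GAGA repeat came to 1.63 and the CA repeat to 4.14, the 1 motif called (adjusted exact p = 0.0357). With outermost summits at least 200 bp apart the class B E-box came to 0.0787 and 1 motif, the class A E-box, was called. With replicates left out the class B E-box ranged from -0.0557 to 0.168, with 0.085 without replicate 2. The N-box was -0.599 against intervals with a close neighbour, and the class C site -0.0551 at promoter intervals alone. With 50 bp windows the N-box came to -1.32 and the GAGA repeat 0.0199, and with 200 bp windows the GAGA repeat 5.8 and the CA repeat 1.39.

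Between strongest and weakest summits, 0 motifs were called with 50 bp windows. Every summit of an interval was recovered in 74.2% within 50 bp and in 70.8% in the replicates' shorter lists of strongest peaks. On dm3, 150 of 10150 intervals held several summits. No paired analysis was possible because all samples belong to 1 group, so samples could not be paired; only summits within an interval were. Read depth, which the lists do not hold, limits how far weak summits could be seen.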
